A study of Drosophila melanogaster with 9 samples.

Results

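The structural cuticle protein genes of Drosophila melanogaster encode most of the protein that is laid down with chitin in the insect exoskeleton. Genes of 6 name groups were taken from the deposited table: every row whose symbol starts with Cpr, Ccp84A, Lcp, Edg, Pcp or Twdl, leaving out TwdlX and TwdlY. This gave 73 of 10221 rows. One of them, Cpr itself, is the NADPH-cytochrome P450 reductase, an enzyme that only shares the letters, and it was set aside. The remaining 72 genes were 45 Cpr, 11 Lcp, 9 Twdl, 4 Ccp84A, 2 Edg genes and 1 Pcp gene. All 72 symbols matched the gene annotation by name.

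Cpr, Lcp, Ccp84A and Pcp proteins and Edg78E carry the Rebers-Riddiford domain, a stretch that binds chitin. Edg91 is a glycine-rich cuticle protein, and the Tweedle (Twdl) proteins form a family of their own, first known from mutants with a short, stout body. Epidermal and tracheal cells secrete these proteins at their apical side, and late embryos do so to build the cuticle of the first larva. Lcp stands for larval cuticle protein, Pcp for pupal cuticle protein, Edg for ecdysone-dependent gene, and the digits and letters in most other symbols give the place of the gene on the polytene map.

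Whole embryos of 3 genotypes were sequenced, with 3 libraries each, and every genotype carried the Insc-Gal4 driver, whose inscuteable regulatory DNA is active in neural stem cells (neuroblasts). Hexa embryos carried UAS transgenes for hb, ase, Kr, SoxN, nub and wor. Quad embryos carried those for ase, Kr, SoxN and wor. Control embryos had the driver over an OregonR chromosome and no UAS transgene. Embryos spanned stage 16 to the time when the tracheae fill with air, and each collection pooled more than 200 of them. These libraries are called Hexa 1 to 3, Quad 1 to 3 and control 1 to 3 by their labels. The labels also give each genotype its own experiment number, so experiment and genotype cannot be told apart. The design text differs from the labels: it speaks of 2 experiments with a control in each, and which of the 3 control libraries would belong to which is not stated. Embryos with UAS transgenes but no driver were not analysed here.

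Levels are RPKM, reads scaled to transcript length and library size, in which genes can be compared with each other. The deposited counts summed to between 8555639 and 11390902 reads in Hexa, 10297721 and 11465747 in Quad and 11338459 and 11687961 in control libraries. The misexpressed genes matched the labels in part. The neuroblast genes ase and wor were higher in every Hexa and every Quad library than in any control, but Kr, which encodes the zinc finger factor Krüppel, lay at 4.46 to 5.57 RPKM in Hexa and 5.40 to 6.71 RPKM in Quad, against 6.61 to 8.20 RPKM in control libraries. SoxN overlapped between Hexa and control. Neither hb nor nub is part of the Quad combination, but both were higher in every Quad library than in any control. For hb the range was 1.81 to 6.99 RPKM in Quad, against 1.40 to 1.72 RPKM in control libraries. For nub it was 19.6 to 21.3 RPKM in Quad, against 17.9 to 18.8 RPKM in control libraries.

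Hexa 2 and Hexa 3 stood apart for the cuticle genes, in opposite directions. Among the 59 members that could be tested, Hexa 2 was the highest of the 3 Hexa libraries in 46 (78.0%), against 36.7% of all 6190 tested genes. Hexa 3 was the lowest of the 3 in 46 (78.0%), against 36.5% of all tested genes. The mean level of 16 heat shock genes, as a log2 difference from the control mean, was 0.84 in Hexa 1, 2.28 in Hexa 2 and 2.62 in Hexa 3. It lay between -0.83 and 0.74 in Quad and between -0.66 and 0.41 in control libraries. The part of heat shock in the results below was not tested. The count of members called is also given with the heat shock mean as a covariate in each comparison.

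The sum over the 72 genes was 2.78% to 4.66% of all RPKM in Hexa, 3.42% to 3.66% in Quad and 3.76% to 4.64% in control libraries. It was 9324, 14176 and 7242 RPKM in Hexa 1, 2 and 3, with a mean of 10247 ± 3558 (SD, n = 3). The Quad sum was 8331 ± 251 RPKM and the control sum 10249 ± 544 RPKM (SD, n = 3 each). The Hexa mean was 1.00 times the control mean, but it lay between a library far above every control and a pair below every control. All 3 Quad libraries lay below all 3 controls, at 0.813 times the control mean, and without the most abundant gene, Lcp65Ag1, the ratio was 0.816. In whole-embryo RNA, fewer cells of a type and less RNA per cell cannot be told apart.

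Cpr genes gave 51.2% and Lcp genes 38.2% of the sum over the members, on average over the 9 libraries. Twdl genes gave 6.11% and Ccp84A genes 3.91%. The 6 most abundant genes held 70.0%, and Lcp65Ag1 alone held 28.9%. Levels thus ran over a very wide span: 14 genes had a mean of at least 100 RPKM, 40 lay between 1 and 100 RPKM, and 18 were under 1 RPKM. The median gene stood at 67.0 RPKM in the Ccp84A group, 30.4 in the Lcp group, 26.9 in the Twdl group and 24.6 in the Edg pair. Over all 45 Cpr genes it stood at 5.5 RPKM, against 1.35 RPKM for all 10221 genes of the table. Over the 33 Cpr genes that passed the filter on low values described below it stood at 21.5 RPKM, against 8.23 RPKM for the 6190 genes that passed it.

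**Figure D1:**
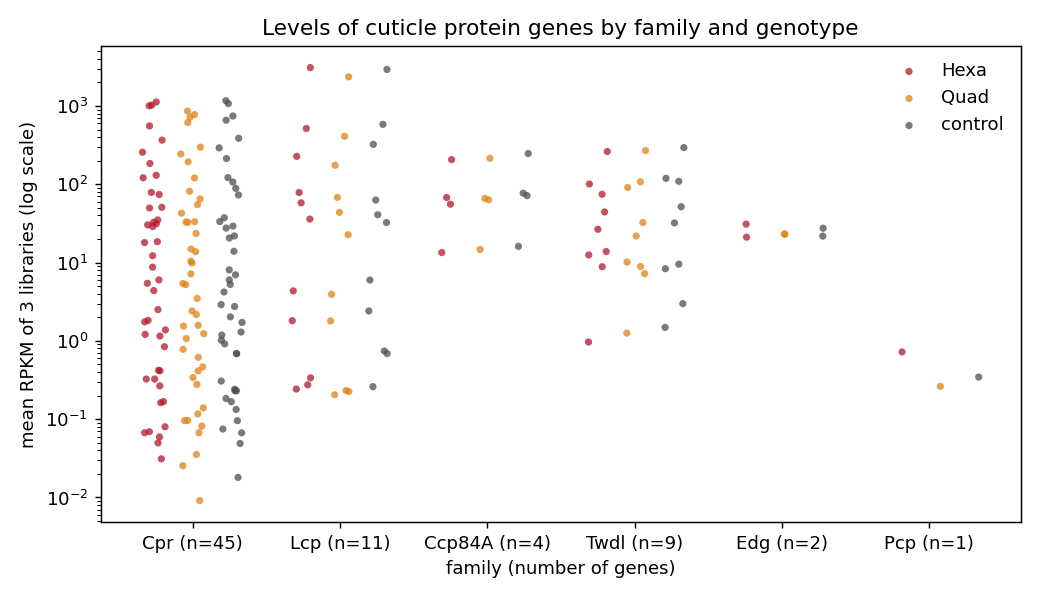
Each point is the mean RPKM of 3 libraries for 1 gene (log scale), by family and genotype, with Hexa left of Quad and control. The Cpr group spans from under 1 RPKM to about the level of the most abundant genes, the 4 Ccp84A genes run from 14.8 to 223 RPKM over the 9 libraries, and Lcp65Ag1 is at the top with a mean of 2798 RPKM over the 9 libraries.

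Lcp65Ag1, a larval cuticle protein gene of the 65A cluster, was the most abundant member and ranked 7 among all genes of the table by its mean level. It had 2863, 4417 and 2021 RPKM in Hexa 1, 2 and 3, 2230.2, 2419 and 2427 RPKM in Quad 1, 2 and 3, and 2797, 3324 and 2679.9 RPKM in control 1, 2 and 3. Hexa libraries spanned the whole control range, and Quad libraries lay below it. Next in the Lcp group came Lcp65Ae, with 518 ± 175 RPKM in Hexa, 411 ± 72.9 in Quad and 584 ± 87.9 in control embryos. Lcp65Af had 228 ± 124 RPKM in Hexa, 175 ± 12.2 in Quad and 324 ± 42.2 in control embryos (SD, n = 3 each, here and for the levels below). The Quad libraries lay below the controls for Lcp65Af and overlapped them for Lcp65Ae, and neither gene passed the test in any comparison.

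In the 3 most abundant Cpr genes the Hexa libraries were again spread widely. Cpr51A had 810, 1284 and 927 RPKM in Hexa 1, 2 and 3, against 864 ± 44.3 RPKM in Quad and 1172 ± 156 RPKM in control embryos. Cpr47Eg had 1028, 1452 and 600.2 RPKM in Hexa 1, 2 and 3, against 723 ± 54.4 RPKM in Quad and 1076 ± 202 RPKM in control embryos. Cpr65Ax2 had 989, 1788 and 607 RPKM in Hexa 1, 2 and 3, against 777 ± 94.7 RPKM in Quad and 746 ± 21.1 RPKM in control embryos. Hexa 2 was the highest Hexa library in all 3 genes, and Hexa 3 was the lowest in Cpr47Eg and Cpr65Ax2 but not in Cpr51A. None of the 3 passed the test in any comparison.

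In the Tweedle family TwdlW was the most abundant, with 262 ± 50.7 RPKM in Hexa, 270 ± 20.9 in Quad and 295 ± 38.9 in control embryos. TwdlP had 101 ± 34.3 RPKM in Hexa, 91.1 ± 2.92 in Quad and 119 ± 32.0 in control embryos. In both genes the groups differed by less than the spread of the Hexa libraries. The Ccp84A genes, a small cluster of cuticle genes near the Antennapedia complex, were led by Ccp84Ae with 207 ± 82.1 RPKM in Hexa, 215 ± 37.1 in Quad and 248 ± 38.5 in control embryos. Ccp84Ab had 67.8 ± 17.0 RPKM in Hexa, 66.1 ± 0.0608 in Quad and 77.1 ± 5.83 in control embryos. Ccp84Aa had 55.7 ± 15.0 RPKM in Hexa, 63.4 ± 0.550 in Quad and 71.8 ± 6.27 in control embryos. Quad libraries lay below the controls in Ccp84Aa and Ccp84Ab, which are near-identical neighbours whose reads may be shared.

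**Figure D2:**
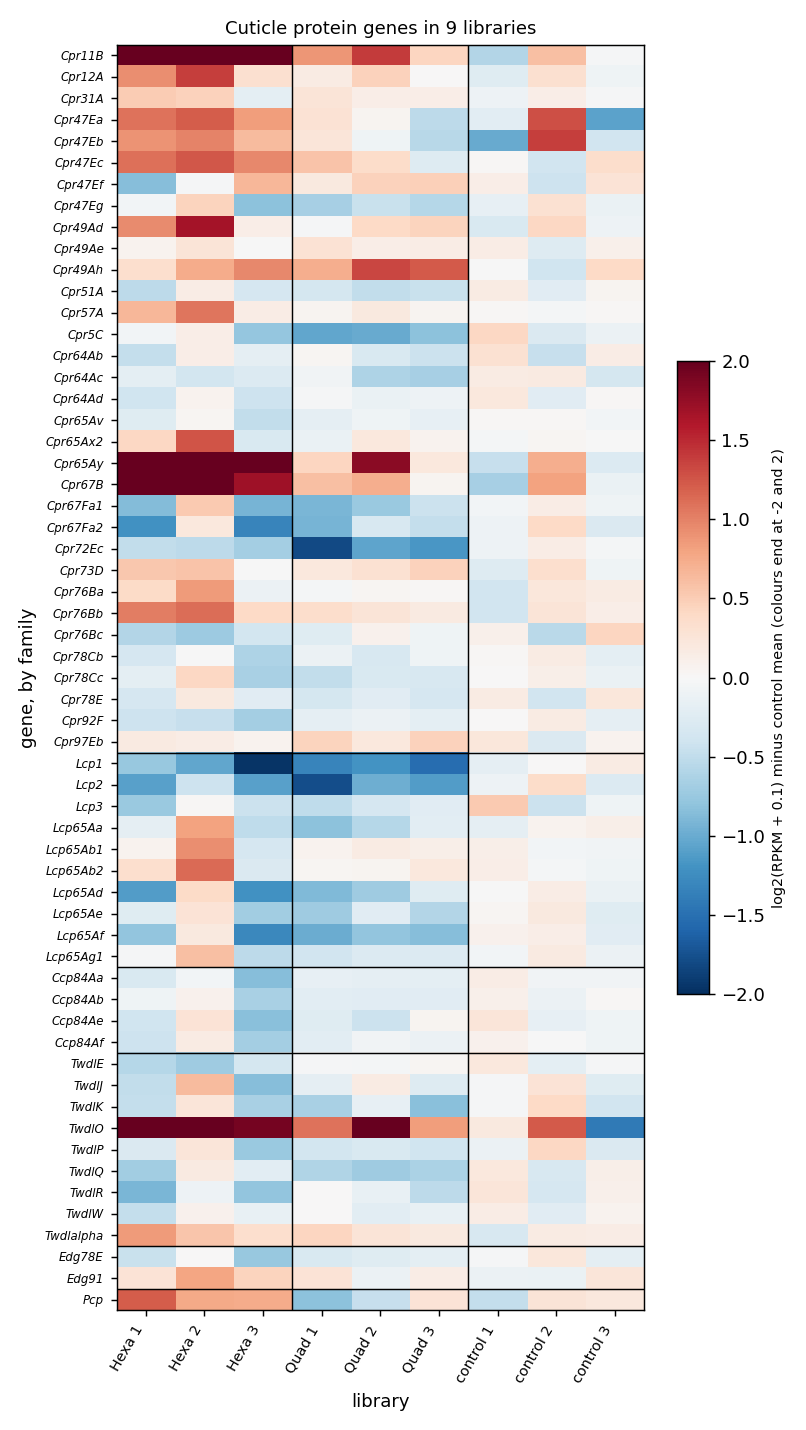
Each row is a cuticle protein gene, grouped by family, and each column a library, in the order Hexa, Quad and control. Colour gives log2(RPKM + 0.1) minus the mean of the control libraries, and the Hexa 2 column is mostly above the Hexa 3 column, as the counts of 46 of 59 genes state.

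Genes were tested with limma on log2(RPKM + 0.1) in 1 fit of all 9 libraries, with Benjamini-Hochberg adjustment over the 6190 genes that had at least 0.5 RPKM in at least 3 libraries. A gene was called at an adjusted p under 0.05. Of the 72 members 59 passed the filter: 33 of 45 Cpr, 10 of 11 Lcp, all 9 Twdl, all 4 Ccp84A, both Edg genes and Pcp. The 13 others, 12 Cpr genes and Lcp9, reached at most 0.589 RPKM in any library. Lcp1 and Lcp2 passed the filter only through control libraries, Pcp only through Hexa libraries, and Cpr76Bc through no Hexa library, so their presence among the tested genes rests on the group in which they were high. Fold changes are on the log2(RPKM + 0.1) scale, which understates changes of low genes, and errors of fold changes are standard errors.

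In Hexa against control embryos a small set of cuticle genes rose steeply while the 6 most abundant did not pass the test. Cpr65Ay, Cpr11B, TwdlO and Cpr67B rose about 4- to 6-fold, 6 further genes rose by less, and Lcp1, TwdlE and Cpr92F fell. Of 59 tested members 13 were called (22%), 10 higher and 3 lower, with Lcp1, which entered the test through control libraries alone, among the 3. Of all tested genes 32.3% were called, 19.1% higher and 13.1% lower, so the share among the members was the lower one. The count was 4 without control 1 and 6 without Hexa 1. Without Hexa 2 it was 16, of which 4 were higher and 12 lower, and without Hexa 3 it was 17, of which 14 were higher and 3 lower. With the heat shock mean as a covariate it was 3, namely Cpr11B, Cpr65Ay and Cpr67B, and every other call was lost.

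Cpr11B, a Cpr gene on the X chromosome, had 20.6, 21.1 and 12.4 RPKM in Hexa 1, 2 and 3, 5.12, 7.42 and 3.72 RPKM in Quad 1, 2 and 3, and 1.81, 4.23 and 2.69 RPKM in control 1, 2 and 3. Every Hexa library was above every Quad and every control library. The log2 fold change was 2.63 ± 0.35 in Hexa against control (limma adjusted p = 0.00121). In Hexa against Quad it was 1.73 ± 0.35 (adjusted p = 0.0126), a call lost without Quad 3. The gene lies inside another gene, hwt, in the annotation.

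Cpr65Ay, a gene of the 65A cluster, had 38.2, 37.4 and 22.8 RPKM in Hexa 1, 2 and 3, 6.68, 17.4 and 5.67 RPKM in Quad 1, 2 and 3, and 3.55, 8.21 and 4.03 RPKM in control 1, 2 and 3. The lowest Hexa library was above the highest Quad and control library. The log2 fold change was 2.68 ± 0.46 in Hexa against control (adjusted p = 0.00507) and 1.86 ± 0.46 in Hexa against Quad (adjusted p = 0.0267), the second lost without Quad 1, Quad 3, Hexa 1 or Hexa 2. In the deposited counts it had between 892 and 1116 reads in Hexa, 221 and 646 in Quad and 144 and 337 in control libraries.

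Cpr67B was the most abundant of the genes that rose. It had 132, 133 and 99.2 RPKM in Hexa 1, 2 and 3, 46.4, 50.3 and 31.8 RPKM in Quad 1, 2 and 3, and 19.2, 53.5 and 27.7 RPKM in control 1, 2 and 3. The Hexa libraries did not overlap the others, while Quad and control overlapped. The log2 fold change was 1.97 ± 0.34 in Hexa against control (adjusted p = 0.00478). In Hexa against Quad it was 1.51 ± 0.34 (adjusted p = 0.0194), lost without Quad 3, Hexa 1 or Hexa 2 and with the heat shock covariate. The calls of Cpr11B, Cpr65Ay and Cpr67B in Hexa against control held in all 17 alternatives run for each gene, among them leaving out each of the 6 libraries and the heat shock covariate, with a highest adjusted p of 0.0169, 0.0420 and 0.0498 in that order.

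TwdlO, a Tweedle gene, had 11.5, 21.1 and 9.03 RPKM in Hexa 1, 2 and 3, 5.02, 12.5 and 4.22 RPKM in Quad 1, 2 and 3, and 2.65, 5.53 and 0.804 RPKM in control 1, 2 and 3. Hexa lay above control in every library, but the replicates of each group differed widely. Its log2 fold change in Hexa against control was 2.44 ± 0.67 (adjusted p = 0.0290). The call was lost without control 1, control 3, Hexa 1 or Hexa 2. It was also lost with the heat shock covariate, in a fit of the 2 groups and with edgeR. The adjusted p ran from 0.00177 to 0.166 over 17 alternatives. Hexa against Quad gave 1.00 (adjusted p = 0.289).

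**Figure D3:**
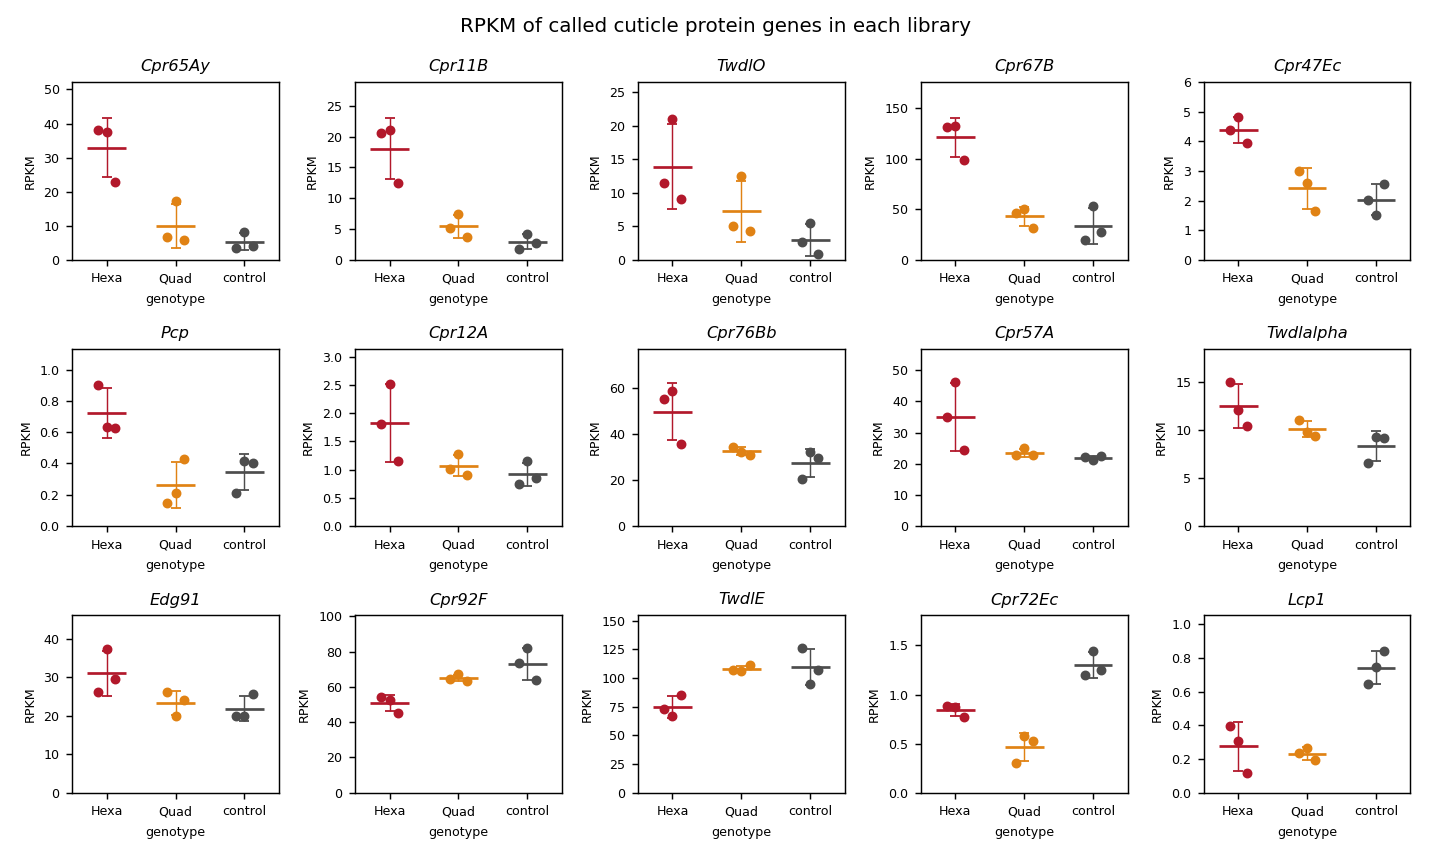
RPKM of each called gene in every library (points) with the mean and SD of 3 libraries, Hexa left of Quad and control, each panel on its own linear axis from 0. For Cpr11B, Cpr65Ay and Cpr67B every Hexa point lies above every other point, while for TwdlE and Cpr92F every Hexa point lies below the others.

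The 6 other genes that rose in Hexa against control changed by less than 2.2-fold. Cpr47Ec had 4.38, 4.83 and 3.96 RPKM in Hexa 1, 2 and 3, 3.01, 2.60 and 1.64 RPKM in Quad 1, 2 and 3, and 2.02, 1.5 and 2.57 RPKM in control 1, 2 and 3. It was higher in every Hexa library than in any other, by 1.10 ± 0.25 log2 against control (adjusted p = 0.0128), a call that was lost with the heat shock covariate. Against Quad it was 0.87 higher (adjusted p = 0.0368), lost without Quad 2, Quad 3, Hexa 1 or Hexa 2.

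Cpr76Bb had 49.9 ± 12.4 RPKM in Hexa, 32.7 ± 1.84 in Quad and 27.6 ± 6.13 in control embryos, with every Hexa library above the rest (log2 0.84 against control, adjusted p = 0.0204). Cpr57A had 35.1 ± 10.9 RPKM in Hexa, 23.6 ± 1.28 in Quad and 21.9 ± 0.586 in control embryos (log2 0.63, adjusted p = 0.0379). Its exons overlap those of the odorant-binding protein gene Obp57d on the same strand. Obp57d was also higher in Hexa, by 0.61 log2 (adjusted p = 0.0422), and reads of the overlap cannot be told apart.

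Cpr12A had 1.83 ± 0.690 RPKM in Hexa, 1.07 ± 0.193 in Quad and 0.916 ± 0.211 in control embryos (log2 0.88, adjusted p = 0.0444). Hexa 3 overlapped the highest control library. Twdlalpha had 12.5 ± 2.31 RPKM in Hexa, 10.1 ± 0.859 in Quad and 8.37 ± 1.55 in control embryos (log2 0.58, adjusted p = 0.0357). Its exons overlap CG32568 and it lies inside goe, which fell by 1.88 log2 in Hexa (adjusted p = 0.000153), and whether counting used strand is not given in the sources used here.

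Edg91, the glycine-rich gene, had 31.0 ± 5.81 RPKM in Hexa, 23.3 ± 3.12 in Quad and 21.8 ± 3.26 in control embryos (log2 0.50, adjusted p = 0.0488). These 5 calls rested on single libraries, and all 5 were also lost with the heat shock covariate and in a fit of the 2 groups. Those of Cpr76Bb and Twdlalpha were lost without control 1, Hexa 1 or Hexa 2, that of Cpr12A without any of these or control 3, that of Cpr57A without any control, Hexa 1 or Hexa 2, and that of Edg91 without control 1, control 2 or any Hexa library. Over its alternatives the adjusted p of Edg91 ran from 0.0420 to 0.769.

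Among the genes that fell in Hexa, TwdlE was the most abundant. It had 72.8, 66.5 and 84.9 RPKM in Hexa 1, 2 and 3, 107, 106 and 111 RPKM in Quad 1, 2 and 3, and 126, 94.7 and 107 RPKM in control 1, 2 and 3. All Hexa libraries were below all others, by 0.54 ± 0.14 log2 against control (log2 -0.54, adjusted p = 0.0190) and by as much against Quad (log2 -0.54, adjusted p = 0.0256). The call against control was lost without control 1 or Hexa 1, and that against Quad without any Quad library, Hexa 1 or Hexa 2. Both calls were also lost with the heat shock covariate. Its exons overlap the gene lectin-28C on the other strand, which also fell in Hexa, by 0.62 log2 (adjusted p = 0.00501).

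Cpr92F had 54.4, 52.8 and 45.5 RPKM in Hexa 1, 2 and 3, 64.4, 67.2 and 63.5 RPKM in Quad 1, 2 and 3, and 73.3, 81.9 and 64.1 RPKM in control 1, 2 and 3. Hexa libraries were the lowest, and the log2 fold change against control was -0.52 ± 0.12 (adjusted p = 0.0147). The call was lost without control 1, with the heat shock covariate and in a fit of the 2 groups. Lcp1, a larval cuticle protein gene with near-identical neighbours, was barely present: it had 0.399, 0.310 and 0.117 RPKM in Hexa 1, 2 and 3, 0.238, 0.267 and 0.191 RPKM in Quad 1, 2 and 3, and 0.643, 0.747 and 0.840 RPKM in control 1, 2 and 3. Its RPKM was lower in both misexpression genotypes than in every control. It passed the filter through control libraries alone, so this order had to follow and gives no support of its own. The log2 fold change was -1.25 ± 0.35 in Hexa against control (adjusted p = 0.0281), and -1.34 in Quad against control, where the call was missed (adjusted p = 0.0636). The Hexa call was lost with the heat shock covariate and in a fit of the 2 groups. On the deposited counts, 16 reads of Lcp1 in all 9 libraries, DESeq2 gave the opposite sign, 1.76 in Quad and 0.18 in Hexa against control.

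Other members with large negative fold changes in Hexa against control did not pass the test. Lcp2, the neighbour of Lcp1, had 0.338 ± 0.126 RPKM in Hexa, 0.225 ± 0.0887 in Quad and 0.688 ± 0.187 in control embryos (Hexa against control log2 -0.86, adjusted p = 0.0792). Cpr67Fa2, near-identical to Cpr67Fa1 beside it, had 51.3, 138 and 47.7 RPKM in Hexa 1, 2 and 3, against 122 ± 31.3 RPKM in control embryos (log2 -0.78, adjusted p = 0.139). Lcp65Ad had 2.70, 7.85 and 2.51 RPKM in Hexa 1, 2 and 3, against 5.99 ± 0.602 RPKM in control embryos (log2 -0.65, adjusted p = 0.195). In both, Hexa 2 alone stood within or above the control range. Without Hexa 2, Cpr67Fa2 (log2 -1.27, adjusted p = 0.00974) and Lcp65Ad (log2 -1.17, adjusted p = 0.00774) were called lower. Over all alternatives the adjusted p reached 0.617 for Cpr67Fa2 and 0.519 for Lcp65Ad.

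By family, 7 of 33 tested Cpr genes were higher and 1 lower in Hexa against control, 2 of 9 Twdl genes were higher and 1 lower, 1 of 10 Lcp genes was lower and 1 of 2 Edg genes was higher. The higher share among Cpr genes, 21.2%, was near the 19.1% of all tested genes, and the lower share, 3.03%, stood beside 13.1%. The higher share among Twdl genes was 22.2% and the lower one 11.1%. None of the 4 Ccp84A genes was called with limma, edgeR or DESeq2, and 0 of them had an unadjusted limma p under 0.05. The median log2 fold change was 0.10 over the Cpr genes, -0.30 over the Lcp genes, -0.25 over the Twdl genes and -0.31 over the Ccp84A genes, against 0.03 over all genes tested. The median over all tested members, -0.17, was -0.35 without Hexa 2 and 0.01 without Hexa 3. Without Hexa 2 the median was 0.03 over the Cpr, -0.52 over the Lcp, -0.46 over the Twdl and -0.56 over the Ccp84A genes, and without Hexa 3 it was 0.16, -0.14, -0.11 and -0.09 in the same order. Without Hexa 1 it was -0.11 over the Twdl genes. Without control 2 it was -0.02 over the Cpr, -0.02 over the Lcp and -0.10 over the Twdl genes, and without control 1 it was -0.08 over the Lcp genes. Fold changes were positive in 17 of 33 Cpr, 4 of 10 Lcp, 2 of 9 Twdl and 0 of 4 Ccp84A genes. Groups that did not overlap had all Hexa libraries above control in 10 of 59 members (16.9%, against 28% of all tested genes) and below in 5 (8.47%, against 23.7%). Among the 10 was Pcp, which passed the filter through Hexa libraries alone. Among the 5 were Lcp1, the Lcp gene called lower, and Lcp2, which both passed through control libraries alone.

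**Figure D4:**
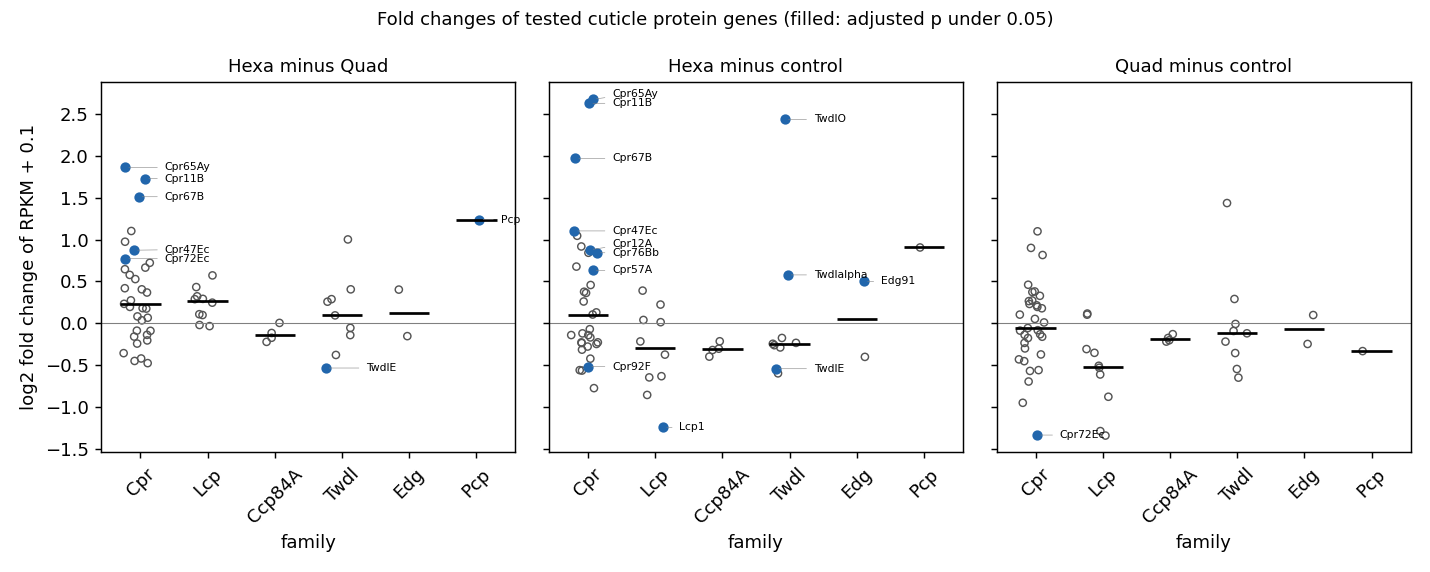
Log2 fold changes of RPKM + 0.1 of the 59 tested members by family, in a panel per comparison, with called genes filled and named. In Hexa against control Cpr65Ay, Cpr11B, TwdlO and Cpr67B stand above the rest, at 2.68, 2.63, 2.44 and 1.97, while most other members lie near 0.

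In Hexa against Quad embryos 7 of 59 members were called (11.9%), 6 higher, among them Pcp, which entered the test through Hexa libraries alone, and 1 lower, against 23.1% of all tested genes, 13.5% higher and 9.63% lower. Besides Cpr65Ay, Cpr11B, Cpr67B, Cpr47Ec and TwdlE, described above, Pcp and Cpr72Ec rose in this comparison. The count depended on single libraries: it was 3 without Quad 1 or Quad 2, 1 without Quad 3, Hexa 1 or Hexa 2, and 12 without Hexa 3. With the heat shock covariate it was 2, namely Cpr11B and Cpr65Ay, and every other call was lost.

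Pcp, the pupal cuticle protein gene that lies in an intron of Gart, had 0.904, 0.634 and 0.629 RPKM in Hexa 1, 2 and 3, 0.147, 0.215 and 0.426 RPKM in Quad 1, 2 and 3, and 0.212, 0.419 and 0.405 RPKM in control 1, 2 and 3. It was low everywhere. Since it passed the filter through Hexa libraries alone, the call of higher in Hexa gives no support of its own. The difference was 1.24 ± 0.36 log2 over Quad (adjusted p = 0.0393). The call was lost without Quad 1 or Quad 2 and with the heat shock covariate. Against control the log2 fold change of Pcp was 0.91 (adjusted p = 0.0776). Genes with the largest negative values that were not called were Cpr76Bc (log2 -0.48, adjusted p = 0.240), Cpr47Ef (log2 -0.45, adjusted p = 0.356) and Cpr49Ah (log2 -0.42, adjusted p = 0.274).

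By family, 5 of 33 Cpr genes were higher in Hexa than in Quad (15.2%, against 13.5% of all tested genes). Pcp, which entered the test through Hexa libraries alone, was also higher. In the Twdl family 1 of 9 genes was lower (11.1%, against 9.63% of all tested genes). No Lcp or Ccp84A gene was called with limma, and 0 of them had an unadjusted limma p under 0.05. Nor did edgeR or DESeq2 call any, where 6 of the 10 tested Lcp and all 4 Ccp84A genes had an adjusted p. The median log2 fold change was 0.23 over the Cpr, 0.27 over the Lcp, 0.09 over the Twdl and -0.15 over the Ccp84A genes, against 0.06 over all genes tested. The median over all tested members, 0.20, was -0.04 without Hexa 2 and 0.39 without Hexa 3, and without Hexa 2 those of the Lcp (-0.05) and Twdl genes (-0.16) were negative, while without Hexa 3 that of the Ccp84A genes was positive (0.08). Positive values were found in 23 of 33 Cpr, 8 of 10 Lcp, 5 of 9 Twdl and 1 of 4 Ccp84A genes. All Hexa libraries lay above all Quad libraries in 11 of 59 members (18.6%, against 28.6% of all tested genes) and below in 4 (6.78%, against 22.2%). Pcp was among the 11, and Cpr76Bc, in which no Hexa library reached the filter, was among the 4.

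In Quad against control embryos 1 of 59 members was called (1.69%), against 4.68% of all tested genes, 2.16% higher and 2.52% lower. The count was also 1 with the heat shock covariate. The member called was Cpr72Ec, which had 0.887, 0.868 and 0.773 RPKM in Hexa 1, 2 and 3, 0.299, 0.574 and 0.524 RPKM in Quad 1, 2 and 3, and 1.19, 1.45 and 1.25 RPKM in control 1, 2 and 3. Quad was lowest, Hexa lay between the other groups, and no groups overlapped. Its log2 fold change was -1.34 ± 0.24 in Quad against control (limma adjusted p = 0.0134) and 0.77 in Hexa against Quad (adjusted p = 0.0462). The call in Quad was lost without control 3 (adjusted p = 0.0590, in a range from 1.39e-05 over 15 alternatives), which left a count of 0. The call in Hexa against Quad was lost without any 1 of the 6 libraries. Deposited counts of Cpr72Ec were 41, 70 and 67 reads in Quad 1, 2 and 3, against 159, 195 and 162 reads in control 1, 2 and 3.

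In this fit, which has no replicate term, no member was called higher in Quad, and 3 had an unadjusted p under 0.05 with a positive fold change, against 7 with a negative one. Among the 7 were Lcp1 and Lcp2, which entered the test through control libraries alone. On the counts, edgeR called none higher and DESeq2 called 1, Cpr49Ah (log2 1.21, DESeq2 adjusted p = 0.0108). The largest positive values in the limma fit were those of TwdlO (log2 1.44, adjusted p = 0.281), Cpr49Ah (1.10, adjusted p = 0.0569), Cpr11B (0.90, adjusted p = 0.20) and Cpr65Ay (0.82, adjusted p = 0.375). Cpr49Ah had 1.17, 1.86 and 1.71 RPKM in Quad 1, 2 and 3, against 0.669, 0.488 and 0.915 RPKM in control 1, 2 and 3, without overlap. TwdlO, Cpr11B and Cpr65Ay overlapped between Quad and control, and for them Hexa and Quad share the same controls.

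Beside Cpr72Ec the largest negative values in Quad were those of Lcp1, Lcp2 (log2 -1.29, adjusted p = 0.0715) and Cpr5C (log2 -0.95, adjusted p = 0.0680). Cpr5C averaged 6.02 ± 1.85 RPKM in Hexa embryos, and had 3.28, 3.35 and 3.84 RPKM in Quad 1, 2 and 3, against 9.12, 5.54 and 6.28 RPKM in control 1, 2 and 3. Every Quad library was below every control library in Lcp1, Lcp2 and Cpr5C. The same held for 19 of 59 members in all (32.2%, against 15% of all tested genes), and every Quad library was above in 4 (6.78%, against 15.2%). For Lcp1 and Lcp2, which passed the filter through control libraries alone, a place below the controls had to follow. Among the 19 were Lcp65Ag1, Cpr51A, Cpr47Eg and Edg78E, none of which passed the test. Edg78E had 21.1 ± 5.78 RPKM in Hexa, 23.0 ± 0.817 in Quad and 27.5 ± 4.22 in control embryos. Its Quad 3 and control 3 libraries all but met, at 23.725 and 23.731 RPKM.

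The median log2 fold change was -0.52 over the Lcp, -0.19 over the Ccp84A, -0.12 over the Twdl and -0.06 over the Cpr genes, against 0.02 over all genes tested. The Cpr median turned positive without control 2 (0.07), control 3 (0.05) or Quad 3 (0.04). That of the Ccp84A genes was -0.10 without control 1, and that of the Twdl genes ran from -0.22 without Quad 2 to -0.07 without Quad 3. Values were negative in 38 of 59 members, and positive in 2 of 10 Lcp, 0 of 4 Ccp84A, 2 of 9 Twdl and 16 of 33 Cpr genes. Fold changes of the 4 Ccp84A genes ran from -0.22 to -0.13, and none of the 4 had an unadjusted p under 0.05. In the Lcp group 3 of 10 did, all of them negative. These were Lcp65Af, Lcp1 and Lcp2. Lcp1 and Lcp2 passed the filter through control libraries alone, so their sign had to follow and gives no support of its own. With a filter of 2 RPKM, which leaves out Lcp1 and Lcp2, the Lcp median was -0.43 over 8 tested genes.

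The genes are clustered in the genome. With at most 3 other coding genes allowed between neighbours, 50 of the 72 lay in 11 runs. By chromosome arm 31 were on 3L, 18 on 2R, 15 on 3R, 4 on 2L and 4 on X. The longest run, at 65A on 3L, held 12 genes, 7 of the Lcp and 5 of the Cpr group, whose mean levels ran from 0.0994 to 2798 RPKM. Of its 10 tested genes 1, Cpr65Ay, was called in Hexa against control, and the median log2 fold change of the run was 0.03. The neighbours of Cpr65Ay on either side were Lcp65Aa and Cpr65Az, the second too low to test. Lcp65Ab1 and Lcp65Ab2, and Lcp65Ag1 and Cpr65Ax2 with copies not analysed here, are near-identical pairs, so their separate levels are uncertain.

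**Figure D5:**
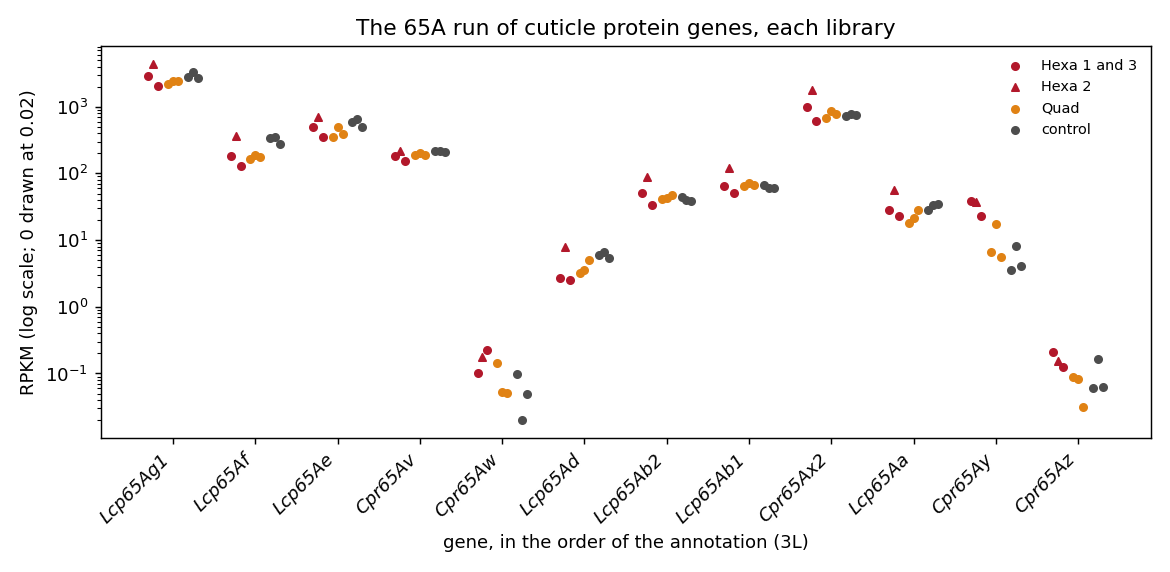
RPKM (log scale, with 0 drawn at 0.02) of the 12 genes of the 65A run in the order of the annotation, each point a library, Hexa left of Quad and control. Neighbouring genes differ by orders of magnitude, and Cpr65Ay is the gene in which the Hexa points separate upward, at 22.8 to 38.2 RPKM.

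Other runs differed in how even they were. The levels of Cpr67Fa1 and Cpr67Fa2 lay close together, at 72.7 and 94.1 RPKM on average. The 47E run on 2R held 7 Cpr genes with mean levels from 0.165 to 942 RPKM, and of its 5 tested genes Cpr47Ec was called in Hexa against control. The 5 Tweedle genes TwdlP, TwdlO, TwdlK, TwdlJ and TwdlR on 3R had a median log2 fold change of -0.26 in Hexa against control, with a positive value in 1, TwdlO. The 4 Ccp84A genes had negative values throughout in both genotypes against control, and the run of Lcp1, Lcp2 and Lcp3 on 2R likewise. In that run Lcp1 and Lcp2 passed the filter through control libraries alone, so their sign had to follow. Lcp3 alone could go either way, with log2 -0.35 in Quad (limma adjusted p = 0.514) and -0.38 in Hexa (adjusted p = 0.271). Of the 3 genes of the 72E run, all under 1 RPKM on average, Cpr72Ec alone passed the filter.

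Other genes of cuticle formation were read from lists of known function. Many listed genes, among them kkv, Ddc and grh, had no row under the symbol used. Rows were found for 6 of 11 genes of chitin synthesis and assembly, 14 of 22 of chitin turnover and 9 of 18 other chitin-binding genes. They were found for 4 of 13 zona pellucida domain, 12 of 19 tanning and 16 of 25 Osiris genes and 12 of 24 transcription factors. The lists thus cover only part of each process. Of 6 tested genes of chitin synthesis and assembly none was called in Quad against control with limma, edgeR or DESeq2, and 0 had an unadjusted limma p under 0.05. On the counts edgeR and DESeq2 each called 2 of them lower in Hexa against control. With limma 3 fell in that comparison, where 13.1% of all tested genes fell. These were knk (log2 -0.71, adjusted p = 0.0179), which protects and organises new chitin, and reb (log2 -0.54, adjusted p = 0.0230) and exp (log2 -0.42, adjusted p = 0.0294), which are needed for chitin deposition in the trachea. Of 12 tested genes of chitin turnover 1 rose and 6 fell in Hexa against control, with a median of -0.41, where 19.1% of all tested genes rose and 13.1% fell. On the counts edgeR called 2 and DESeq2 4 of the list lower. The chitin deacetylase gene Cda5 fell by 0.68 log2 (adjusted p = 0.0122), the chitinase gene Cht7 fell by 0.54 log2 (adjusted p = 0.0174) and Cda9 rose by 0.74 log2 (adjusted p = 0.020).

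Of 6 other chitin-binding cuticle genes 2 rose in Hexa against control, where 19.1% of all tested genes rose and 13.1% fell. Both were of the obstructor family: obst-G (log2 1.56, adjusted p = 0.0243) and obst-F (log2 0.60, adjusted p = 0.0278). On the counts edgeR called 1 of the 6 higher and 1 lower, and DESeq2 called 2 higher and 1 lower. Of 4 zona pellucida domain genes of the apical matrix 1 fell in Hexa against control, dy (log2 -1.01, adjusted p = 0.0313). On the counts edgeR called none of the 4, and DESeq2 called 2 lower. Of 12 cuticle tanning genes 4 rose and 2 fell in Hexa against control, led by yellow-f2 (log2 0.71, adjusted p = 0.00349) and yellow-f (log2 1.04, adjusted p = 0.00572), both of the yellow family. These counts stood beside the same 19.1% and 13.1% of all tested genes. On the counts of reads, edgeR and DESeq2 each called 2 tanning genes higher and 2 lower. In Quad against control y, the yellow pigmentation gene, rose by 0.99 log2 (adjusted p = 0.00949) and Pu, which makes a cofactor of tyrosine hydroxylase, fell by 0.68 log2 (adjusted p = 0.0145). Of 11 genes of the Osiris family, membrane proteins of cuticle-forming cells, limma called none against control, with unadjusted p under 0.05 in 2 in Hexa and 2 in Quad. On the counts 10 of the 11 had an adjusted p. Of these DESeq2 called 1 in Quad, and edgeR called none against control. With limma 2 fell in Hexa against Quad, where 9.63% of all tested genes fell.

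Of 10 transcription factors of epidermis and moulting 6 fell in Hexa against control, with a median of -0.60, where 13.1% of all tested genes fell. On the counts, edgeR called 1 and DESeq2 2 of the 7 with an adjusted p lower. The nuclear receptor gene ftz-f1 had 84.1 RPKM in Hexa, 145 in Quad and 147 in control embryos on average (Hexa against control log2 -0.81, adjusted p = 0.00820). Eip74EF, an ecdysone-induced ETS factor gene, fell by 0.67 log2 (adjusted p = 0.0190) and pnr, a GATA factor gene of the dorsal epidermis, fell by 0.71 log2 (adjusted p = 0.0296). None of the 10 was called in Quad against control with limma, and 0 had an unadjusted limma p under 0.05. Nor did edgeR or DESeq2 call any of the 7 with an adjusted p on the counts.

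Some cell type markers moved with the Hexa genotype too. Of the epidermis list only ovo and sha were tested. Their summed level lay between 5.73 and 8.07 RPKM in Hexa, 11.5 and 11.8 in Quad and 8.88 and 11.6 in control libraries. In Hexa against control limma called ovo lower, a gene also among the 6 transcription factors that fell, but not sha (log2 -0.73, adjusted p = 0.106). On the counts edgeR and DESeq2 did not call the 1 epidermis marker with an adjusted p in this comparison. The trachea markers btl, verm and serp summed to between 756 and 885 RPKM in Hexa, 1105 and 1146 in Quad and 1012 and 1209.8 in control libraries. Nearly all of this sum was verm and serp, which fell in Hexa and are also on the chitin turnover list above. The third, btl, at 2.65 RPKM in control embryos, was not called in Hexa against control (log2 -0.49, limma adjusted p = 0.0846). The 3 gut markers summed to between 192 and 319 RPKM in Hexa, 72.4 and 97.0 in Quad and 142 and 185 in control libraries. Most of this sum was Jon65Aiv. Of the 3 gut markers, Amy-p and Jon65Aiv rose in Hexa, and thetaTry and Jon65Aiv fell in Quad against control. In Hexa thetaTry went the other way (log2 -0.82 against control, limma adjusted p = 0.0581). On the counts, in Hexa against control, edgeR called none higher and 1 lower, and DESeq2 called 1 higher and 1 lower. All 3 tested markers of blood, Pxn, srp and NimC1, fell in Hexa against control with limma, as did 1 of 2 of muscle. The fat body genes of the list did not pass the filter. On the counts edgeR and DESeq2 called none of the 2 blood markers with an adjusted p and none of the 2 of muscle in this comparison. None of 2 glial markers nor the neuronal marker para was called against control. Their part in the results of the cuticle genes was not tested.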

How the data were processed

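RNA of whole Drosophila melanogaster embryos was sequenced on a HiSeq2500 with 150 bp reads, per the labels. The authors deposited 1 table of 10221 genes with, per the file headers, a raw read count, a linear RPKM and a log2 RPKM for each of 9 libraries. The 9 linear RPKM columns were not used, since the names of control columns there give a second driver. The aligner, the genome build, the annotation and the use of strand are not given in the sources used here. Coordinates are therefore left out. The deposited log2 RPKM has a floor of -10.86 where RPKM is 0, and such values were set to 0 on the linear scale.

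The members and gene lists were chosen with earlier results of these data known. Named members are those called in any comparison, the 3 most abundant of each family, and the 4 largest positive and negative fold changes per comparison. From other lists up to 3 called genes per comparison are named. Genes named as library examples, misexpressed genes, neighbours or overlaps were added after their values were seen.

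In 56 of the 72 members the deposited count equalled, within 5%, the count implied by RPKM and transcript length. For 16 others, among them Cpr11B, Cpr57A, Edg91, Lcp1, Lcp2 and TwdlE, it did not, and 2 had a count of 0 throughout. RPKM was therefore tested, with limma 3.58.1 (R 4.3.3; mean-variance trend, robust), on log2(RPKM + 0.1), with group as the only term. Alternatives were a pseudocount of 0.01 or 1, other filters, TMM scaling, a replicate block, fits of 2 groups, a heat shock covariate, edgeR 4.0.16 quasi-likelihood and DESeq2 1.42.0 on counts, and leaving out libraries. The fits were checked on simulated data. Gene order and overlaps come from BDGP release 6.54 (Ensembl 115), matched by name. Replicates are biological per the labels, and p-values measure the spread between these collections only.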

Additional observations from a re-analysis of the deposited data

How the results depend on the processing

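The number of members called in Quad against control, 1, became 2 with a pseudocount of 1, with no filter on low values and with edgeR on counts, 0 with a filter of 2 RPKM, 3 with a replicate block, 5 in a fit of the 2 groups and 4 with DESeq2, and ran from 0 to 1 when single libraries were left out. In Hexa against control, 13 became 4 in a fit of the 2 groups, 3 with the heat shock covariate and 7 with edgeR, and ran from 4 to 17 without single libraries. In Hexa against Quad, 7 became 4 with a replicate block, 2 with the heat shock covariate and 4 with edgeR, and ran from 1 to 12 without single libraries. Without both Hexa 2 and Hexa 3, a setting chosen after seeing the data in which Hexa 1 is assumed to vary like the other libraries, it was 10 in Hexa against control and 1 in Hexa against Quad. The cause of these shifts was not tested. DESeq2 on the counts turned the sign of Lcp1 in Quad (log2 1.76) and Hexa (0.18) and of Lcp2 in Quad (0.00073) against control, genes whose deposited counts fall short of those implied by RPKM. Deviations of libraries of the same number correlated by 0.098 to 0.179 in Quad and control, -0.152 to -0.035 in Hexa and control and -0.027 to 0.072 in Hexa and Quad. In Quad and control each library correlated best with its own number (6 of 6). That held for 0 of 6 libraries in Hexa and control and 3 of 6 in Hexa and Quad. The main fit took the numbers as pairs in no comparison, so a pairing of Quad with control libraries, if there was one, is not in its results. With the replicate block 11 members were called in Hexa against control. In Quad against control the block made TwdlO a call (log2 1.44, adjusted p = 0.0405, in a range to 0.583 over 16 alternatives). RPKM and counts of genes under 1 RPKM rest on few reads.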
